A study of Arabidopsis thaliana with 8 samples.

Results

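The mesophyll is the inner tissue of the cotyledon, and it is represented here by the 4 libraries titled as mesophyll, out of 8 libraries in the series. Both tissues came from untreated wild-type Arabidopsis thaliana embryos of accession Col-0 grown in a greenhouse, and the other 4 libraries, of the cotyledon epidermis, are used only as a reference. The tissues were cut by laser from paraffin sections of fixed seeds. For each replicate, sections of more than 1 silique from a single plant were pooled, and the dates of harvest differed between replicates of the study. The labels tie neither plants nor dates to the replicate numbers. They give the stage by the growth scale of the plant, and the study calls the embryos linear in its methods and torpedo in its results. Poly(A) RNA was amplified with the SMART-Seq v4 kit and sequenced as read pairs without strand and without molecular identifiers.

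The cotyledon mesophyll of a Brassicaceae embryo is a green storage tissue. While the embryo fills, its chloroplasts make fatty acids that are built into oil, and the oil is kept in bodies coated by oleosins. Albumins and cruciferins are deposited in storage vacuoles. These storage genes are under the control of the maturation regulators, among them LEC1, NF-YB6, ABI3, FUS3 and the bZIP factors that act with them. The B3 factors of this group bind the RY element, and bZIP factors bind the G-box, in the promoters of storage genes.

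The promoters of 5 abundant genes are shown first because their genes lie at the ends of the pattern found among the mesophyll libraries: SESA3, CRA1 and CRU3 encode storage proteins and varied widely between libraries, while CAB1 and RBCS1A encode photosynthetic proteins and were steady. Each sequence is the 250 bases before the annotated start of the gene in TAIR10.1, 5′ to 3′ on the strand of the gene, at chr4:13611546-13611795 (+) for SESA3, chr5:17758337-17758586 (-) for CRA1, chr4:14087306-14087555 (+) for CRU3, chr1:10477635-10477884 (+) for CAB1 and chr1:25049668-25049917 (-) for RBCS1A. Capitals mark the RY core CATGCA, the G-box CACGTG and the I-box GATAAG, a motif named from promoters of photosynthesis genes, on either strand.
SESA3: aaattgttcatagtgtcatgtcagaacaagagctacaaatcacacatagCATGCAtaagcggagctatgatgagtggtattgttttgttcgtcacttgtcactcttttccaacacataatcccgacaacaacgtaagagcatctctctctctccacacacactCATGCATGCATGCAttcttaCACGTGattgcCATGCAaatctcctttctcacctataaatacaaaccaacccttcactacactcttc
CRA1: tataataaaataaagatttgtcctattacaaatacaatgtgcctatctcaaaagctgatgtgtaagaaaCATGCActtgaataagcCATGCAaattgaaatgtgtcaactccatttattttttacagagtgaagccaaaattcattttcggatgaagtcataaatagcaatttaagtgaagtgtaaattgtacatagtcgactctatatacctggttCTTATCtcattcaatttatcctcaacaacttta
CRU3: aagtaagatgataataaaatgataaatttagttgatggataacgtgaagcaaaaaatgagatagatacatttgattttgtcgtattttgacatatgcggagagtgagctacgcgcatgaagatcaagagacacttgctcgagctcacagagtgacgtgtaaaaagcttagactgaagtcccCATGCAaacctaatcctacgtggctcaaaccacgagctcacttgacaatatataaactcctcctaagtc
CAB1: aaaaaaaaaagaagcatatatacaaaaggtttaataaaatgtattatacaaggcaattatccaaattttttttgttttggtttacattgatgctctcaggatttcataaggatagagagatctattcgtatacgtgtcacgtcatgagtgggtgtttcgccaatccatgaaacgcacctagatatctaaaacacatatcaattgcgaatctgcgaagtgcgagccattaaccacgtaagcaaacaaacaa
RBCS1A: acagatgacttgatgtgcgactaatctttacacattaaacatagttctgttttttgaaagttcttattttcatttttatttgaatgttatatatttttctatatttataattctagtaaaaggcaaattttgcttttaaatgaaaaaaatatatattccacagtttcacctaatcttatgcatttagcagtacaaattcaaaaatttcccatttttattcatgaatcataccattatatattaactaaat

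The SESA3 promoter held 7 overlapping or single matches of the RY core and 1 G-box, the CRA1 promoter 2 RY cores and 1 I-box, and the CRU3 promoter 1 RY core. The CAB1 and RBCS1A windows held none of the 3 motifs, which says only that these letters are not in these windows. Among all 27443 promoters of the same length, 8.43% held the RY core, 6.49% the G-box and 12.3% the I-box. Of 8 measured storage protein genes, 7 held the RY core and 5 the G-box. All 7 measured oil body genes held the RY core and 3 the G-box. Of 18 light harvesting genes none held the RY core, 4 held the G-box and 4 the I-box. Of the 28 genes of plastidial fatty acid synthesis that averaged 20 CPM or more in the mesophyll, 1 held the RY core. A match is a description of the letters and not a measured site.

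The label of the 4 libraries was set against defining genes of the tissues in the seed. Levels are given throughout as CPM, the read pairs of a gene per 1000000 counted pairs of its library, and values of the libraries follow the order of replicates 1 to 4. The mesophyll libraries held 28155799, 33715119, 28903983 and 31560179 counted pairs, so that 3 pairs, taken as the floor, equal 0.0890 to 0.107 CPM. Intervals and floors of this kind cover counting error only. The 4 genes used to mark mesophyll had been picked from these data, so their levels describe the libraries and test nothing. CAB3, also called LHCB1.2, a chlorophyll a/b binding protein of photosystem II, stood at 3940.2, 3613, 3596 and 3689 CPM in the mesophyll and at 1478 to 2378 CPM in the epidermis. RBCS1B, a Rubisco small subunit, stood at 100.2, 84.7, 131 and 91.8 CPM against 9.69 to 46.3 CPM. VIT1, which loads iron into the vacuole, stood at 182, 249.8, 289 and 276 CPM against 10.6 to 64.1 CPM. DYL1, a dormancy-associated gene, stood at 271, 182, 242 and 323 CPM against 23.8 to 69.2 CPM. For these 4 genes every mesophyll library lay above every epidermis library.

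Genes of other tissues were also present, and some of them reached the levels of RBCS1B and VIT1. The 8 epidermis markers summed to 739, 718, 261 and 658 CPM in the mesophyll and to 3535 to 6396 CPM in the epidermis, and their largest contributors in the mesophyll were PDF1, LTPG1 and PEL3. The mesophyll sum was lowest in replicate 3. Of 9 endosperm markers, 3 reached a mean of 1 CPM, and the list summed to 55.6, 53.6, 18.3 and 71.7 CPM, nearly all of it the sucrose carrier gene SUC5 at 54.4, 47.6, 17.2 and 59.7 CPM. Of 9 seed coat markers, 2 reached 1 CPM, and the sum of 197, 126, 211 and 96.1 CPM was nearly all ARA12, also called SBT1.7. Vascular markers summed to 160, 220, 332 and 201 CPM, highest in replicate 3, where the provascular transcription factor gene TMO6 stood at 139 CPM. Among the mesophyll libraries replicate 3 thus held the least epidermis and endosperm marker RNA and the most vascular marker RNA. In bulk samples of this kind, fewer cells of a type and less RNA per cell cannot be told apart.

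A further check concerned gene models whose exons hold at least 20 A or at least 20 T in a row. There were 225 such models, and they took 7.24 to 8.52% of pairs in the mesophyll and 7.98 to 15.2% in the epidermis. They are left out of all rankings below. Outside them, PUX3 and RR20 kept a nearly constant ratio to the most abundant of these models over all 8 libraries, with an SD of the log2 ratio of 0.0860 and 0.113, as did AT2G28710 and AT2G47050. Their levels are given below with that remark. The plastid genome gave 1.54 ± 0.108% of pairs (SD, n = 4) and the mitochondrial genome 0.0253 ± 0.0037%. No 2 libraries of the same tissue agreed within sampling noise, the lowest chi-square per degree of freedom being 88.1. Between mesophyll libraries the correlation of log2 CPM across 7765 genes, which are not independent replicates, was 0.887 to 0.922.

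The RNA pool of the mesophyll was shared among many genes. At 1 CPM or more, 14920, 15474, 15101 and 14989 nuclear genes were detected, a mean of 15121 ± 247 (SD, n = 4), against 15125.5 ± 626 in the epidermis. The difference of -4.5 genes had an exact two-sided permutation p of 0.971. Between 1546 and 1638 genes reached 100 CPM and between 94 and 111 reached 1000 CPM. The most abundant genes that together took 50% of the pairs of ranked nuclear genes numbered 719, 690, 792 and 694.

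Of all counted pairs, the 100 most abundant ranked genes took a larger share in the mesophyll than in the epidermis. The 100 most abundant genes of each library took 18.6, 19.1, 17.8 and 19.7% of pairs in the mesophyll, a mean of 18.8 ± 0.790% (SD, n = 4), and 15.7 to 17.1% in the epidermis, a mean of 16.4 ± 0.588%. All mesophyll libraries lay above all epidermis libraries. The difference of 2.43 percentage points had an exact two-sided permutation p of 0.0286, which is the smallest that 70 arrangements of 4 against 4 libraries allow. With the models of long A or T runs kept, the difference turned to -2.03 points with an exact permutation p of 0.286. These models stay in the total of pairs and took 12.5% on average in the epidermis against 8.02% in the mesophyll. Leaving them out of the ranking alone thus lowers the epidermis shares more. As a share of the ranked pairs only, epidermis replicate 1 lay above mesophyll replicate 3, so the tissues overlapped on that scale. That share was not tested. Of ranked pairs, 50% were taken by 690 to 792 genes in the mesophyll and 757 to 913 in the epidermis, which overlap.

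The largest named class in the mesophyll was the ribosomal proteins, whose 373 models took 14.5 ± 0.788% of pairs (SD, n = 4) and filled 37 places of the 100 most abundant genes. The 18 light harvesting genes took 3.99 ± 0.159% and the 30 nuclear genes of the photosystems and electron transport 2.57 ± 0.0813%. The 17 genes of the Calvin cycle, which fixes carbon in the chloroplast, took 1.73 ± 0.0867%. Light harvesting supplied 12 and the photosystems 11 of the 100 most abundant genes. Plastidial fatty acid synthesis, whose enzymes build the acyl chains of seed oil, took 1.88 ± 0.0817% with 29 genes, 7 of them among the 100. Histones took 1.05 ± 0.136%. All 1406 transcription factor models together took 1.76 ± 0.0442%, less than the light harvesting genes alone, and transporters took 1.90 ± 0.0216%. Storage proteins took 0.934 ± 0.641% and oil body proteins 0.776 ± 0.278%, and these were the classes whose spread was large beside their mean.

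**Figure D1:**
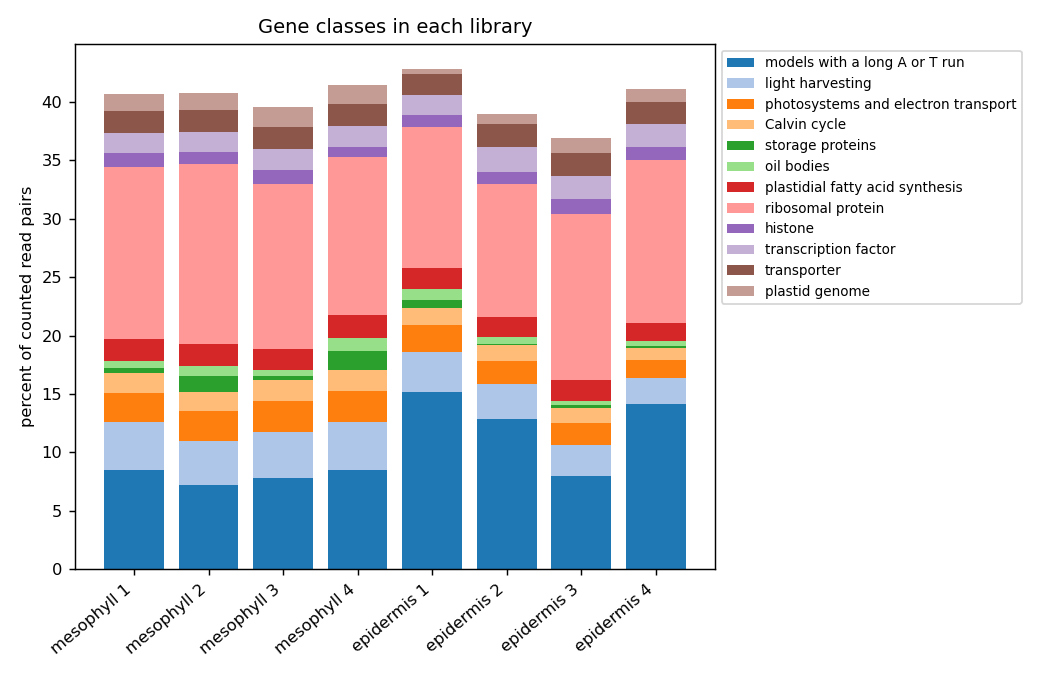
Percent of counted read pairs (vertical axis) taken by gene classes in each of the 4 mesophyll and 4 epidermis libraries, as stacked bars that start at 0. Mitochondrial genes and genes of no listed class are not drawn. In the mesophyll bars the ribosomal proteins are near 14.5% in each library, while the storage protein segment is 0.427, 1.42, 0.337 and 1.55% in replicates 1 to 4.

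CAB1, also called LHCB1.3, was the most abundant nuclear gene of the mesophyll, at 16305, 14146, 14871 and 16777 CPM. It encodes a chlorophyll a/b binding protein of the main antenna of photosystem II, and it also ranked first per length, at 14870.5 CPM per kb. RBCS1A, the main Rubisco small subunit gene, followed with 9324, 8976, 9822 and 10513 CPM, and was second on both scales. PUX3, a UBX domain protein gene, took rank 3 at 7329, 5984, 6418 and 7314 CPM, with the constant ratio described above. Its rank therefore carries the doubt of that ratio. AT5G60390, an elongation factor of translation, took rank 4 at 4973, 5065, 4281 and 4440.2 CPM, and CAB3 rank 5.

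Storage genes came next in the ranking. SESA3, a seed storage albumin, took rank 6 with 1537, 4774, 989 and 6095 CPM, a range of 6.16-fold between libraries. CRA1, a cruciferin, took rank 7 with 1687, 3846, 1719 and 4528 CPM, a 2.68-fold range. In both genes replicates 2 and 4 were high and replicates 1 and 3 low. OLEO3, an oleosin, took rank 10 with 2222, 2594, 2288 and 3643 CPM, and AT3G01570, another oleosin gene, took rank 20 with 1408, 2071, 1334 and 3011 CPM. All 4 of these genes were highest in replicate 4.

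The other genes of the first 20 were steadier. LHB1B2, a further antenna gene, stood at 2665 to 3022 CPM. GRP7, a glycine-rich RNA-binding protein gene of the circadian clock output, was the steadiest of the 20, at 2777, 2845, 2833 and 2678 CPM, a 1.06-fold range. THI1, which makes the thiazole of thiamine, stood at 2028 to 2703 CPM. The ribosomal protein genes AT5G15200 and AT5G20290 averaged 2305 ± 146 and 2064 ± 149 CPM (SD, n = 4). The remaining 6 were LHCA1, LHCB5, LHCB3 and LHCB6, which encode antenna proteins, and PSBO1 and PSBR, which encode subunits of photosystem II, all between means of 1979 and 2259 CPM. In all, 16 of the 20 genes varied by less than 1.5-fold between the highest and the lowest library, and 11 of the 20 were among the first 20 of every library. Of the 100 most abundant genes, 84 were among the first 100 of every library. Among genes often used as references, GAPC1 of glycolysis stood at 1386 to 1636 CPM and the ubiquitin gene UBQ10 at 642 to 822 CPM.

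**Figure D2:**
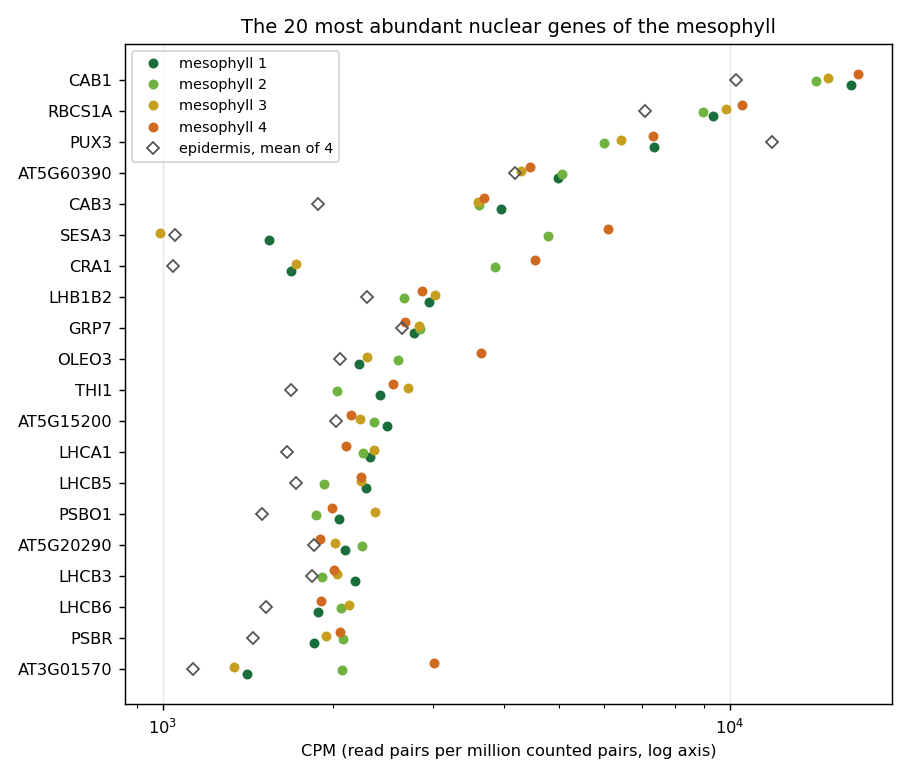
CPM on a log axis for the 20 most abundant nuclear genes of the mesophyll. Points are the 4 mesophyll libraries and open diamonds the mean of the 4 epidermis libraries. CAB1 lies between 14146 and 16777 CPM, while the points of SESA3 spread from 989 to 6095 CPM.

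Counting per length changed the lower part of the ranking. Per kb of model length, 13 of the 20 genes stayed among the first 20, and SESA3 moved from rank 6 to rank 4 and OLEO3 from rank 10 to rank 5. CRA1 moved from rank 7 to rank 37 and THI1 from rank 11 to rank 49. The 7 genes that entered, AT4G18100, AT5G02960, UBQ1, UBQ5, AT4G27090, AT5G27850 and AT1G70600, have short models and encode ribosomal proteins or ubiquitin. Near-identical copies limit the split of counts within families. The longest stretch shared by CAB2 and CAB1 was 119 bases, by CAB3 and CAB2 116 bases, and by RBCS1B and RBCS3B 233 bases, against 67 bases or fewer between RBCS1A and the other small subunit genes. The authors removed pairs that matched several genes, so the levels of these copies are uncertain where both reads fall in a shared stretch.

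Set against the epidermis, the edgeR quasi-likelihood test with Benjamini-Hochberg adjustment over 15794 genes called 16 genes higher in the mesophyll (0.101% of those tested) and 155 lower (0.981%). Of the 20 most abundant genes 1 was called higher and none lower, with 9 higher and 1 lower at an unadjusted p under 0.05. The 1 lower was PUX3, with the constant ratio described above (log2 difference -0.79, SE 0.19). DESeq2 called 3 higher, and the likelihood ratio test 2 higher and 1 lower. The called gene was CAB3, with a log2 difference of 0.98 (SE 0.15, adjusted p = 0.0236, edgeR), and with any 1 replicate left out it was not called (adjusted p 0.0593 to 0.117). In 8 of the 20 every mesophyll library lay above every epidermis library in CPM, without the library scaling of the test, against 4.65% of all genes tested. The median log2 difference of the 20 was 0.41 against 0.04 over all genes tested. Over all 15794 genes, 857 were higher at an unadjusted p under 0.05. DESeq2 called 534 of all genes higher and the likelihood ratio test 264, as a background for the gene groups below. CAB1 had a log2 difference of 0.58 (SE 0.15, adjusted p = 0.134, edgeR) and did not pass. Of the first 20 genes of the epidermis, 14 were the same.

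Regulators were far less abundant than these genes. Of 1406 transcription factor models, 658 reached a mean of 1 CPM and 28 reached 100 CPM, and none was among the 100 most abundant genes. NF-YB6, the LEC1-like subunit of the NF-Y complex that acts in embryo maturation, led the class at 544, 515, 466 and 647 CPM and ranked 262 among all nuclear genes. ICE1, a bHLH factor known in cold response and in stomata, stood at 364, 330.3, 387 and 416 CPM. RR20, a response regulator gene, stood at 263 to 357 CPM with the constant ratio described above. NF-YC2, another NF-Y subunit gene, was the steadiest of the 15 most abundant factors, at 297, 306, 274 and 284 CPM.

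Factors with known roles in seed filling stood among the first 15. WRI1, the AP2 factor that switches on glycolysis and fatty acid synthesis in seeds, stood at 244, 261, 266 and 306 CPM. ABI3, the B3 factor of seed maturation, stood at 201, 198, 203 and 164 CPM. EEL, a bZIP factor of late embryogenesis genes, was the most variable of the 15, at 149, 139, 195 and 284 CPM, a 2.04-fold range. The highest library for WRI1 and EEL was replicate 4, which was the lowest for ABI3.

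The remaining factors came from several families. The MADS gene AGL87 averaged 279.5 ± 52.7 CPM (SD, n = 4), the zinc finger homeodomain genes HB33 and HB25 266 ± 19.9 and 209 ± 33.1 CPM, and the B3 family gene AT1G26680 194 ± 48.9 CPM. XND1, a NAC factor that represses xylem differentiation, averaged 178 ± 29.0 CPM. AS1, a MYB factor of leaf polarity, stood at 144, 163, 201 and 141 CPM. IDD5 and IDD4, zinc finger factors of the INDETERMINATE DOMAIN family, stood at 152 to 214 CPM and at 188, 165, 164 and 187 CPM. Of the 15 factors, 12 varied by less than 1.5-fold between mesophyll libraries.

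IDD4 was the only one of the 15 factors that the edgeR quasi-likelihood test called different between the tissues, while DESeq2 called 3 higher and 2 lower and the likelihood ratio test 2 higher. It stood at 28.4 to 67.5 CPM in the epidermis, below every mesophyll library, and its log2 difference was 1.93 (SE 0.27, adjusted p = 0.0165, edgeR). The call was lost without replicate 1 (adjusted p = 0.0656, edgeR) and without replicate 3 (adjusted p = 0.0521, edgeR). IDD5 had no overlap either, at 73.9 to 127 CPM in the epidermis, with a log2 difference of 1.01 (SE 0.22, adjusted p = 0.0879, edgeR), which did not pass. In 3 of the 15, IDD4, IDD5 and AS1, every mesophyll library lay above every epidermis library, against 4.65% of all genes tested. NF-YC2 was the 1 gene with every mesophyll library below. At an unadjusted p under 0.05, 3 were higher, against 857 of all 15794 genes tested, and 2 lower. The 2 lower were NF-YC2 and RR20, the latter with the constant ratio described above. The median log2 difference of the 15 was 0.05.

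Of 969 transporter models, 516 reached a mean of 1 CPM, 30 reached 100 CPM and 1 was among the 100 most abundant genes. That gene was PIP3, also called PIP2;7, an aquaporin of the plasma membrane, at 1117, 1225, 1211 and 990.0 CPM. The aquaporin genes PIP1;4, PIP1C and PIP2;8 had lower means of 672 ± 83.6, 668 ± 30.9 and 614 ± 123 CPM (SD, n = 4), below AAC1 and ATNTT2 described next. Water channels thus made up 4 of the 15 most abundant transporters. Of the 15 aquaporin genes listed, 13 were tested and none was called by edgeR, with 4 higher at an unadjusted p under 0.05 and 3 each by DESeq2 and the likelihood ratio test, at a median log2 difference of 0.46.

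Carriers of the energy and carbon supply of plastids and mitochondria formed another group. AAC1, the ADP/ATP carrier of the mitochondrial inner membrane, stood at 992, 969, 905 and 867 CPM. ATNTT2, which brings ATP into the plastid, stood at 865, 805, 765 and 789 CPM. CUE1, also called PPT1, which brings phosphoenolpyruvate into the plastid, was the steadiest of the 15 at 642, 688, 669 and 667 CPM, a 1.07-fold range. PGLCT, the glucose carrier of the plastid envelope, averaged 449.6 ± 35.6 CPM, APE2, also called TPT, the triose phosphate carrier, 328 ± 34.4 CPM, and BASS2, a pyruvate carrier of the plastid, 278 ± 33.6 CPM. PHT3;1, a mitochondrial phosphate carrier, and VDAC1, the porin of the mitochondrial outer membrane, averaged 335 ± 49.5 and 352 ± 19.5 CPM. None of these 8 genes was called between the tissues by edgeR.

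AVP1, the proton pump of the vacuole driven by pyrophosphate, stood at 307, 338, 379.6 and 257 CPM, and KAB1, a potassium channel subunit, at 222 to 306 CPM. VIT1 was the most variable of the 15, with a 1.59-fold range, and was the only one that the edgeR quasi-likelihood test called between the tissues, with a log2 difference of 2.71 (SE 0.43, adjusted p = 0.0268, edgeR). It was not called without replicates 1, 3 or 4 (adjusted p 0.114, 0.114 and 0.0508, edgeR). At an unadjusted p under 0.05, 4 of the 15 were higher, against 857 of all 15794 genes tested, and none lower. DESeq2 and the likelihood ratio test each called 3 higher. ATNTT2, PIP1C, PIP2;8 and VIT1 had every mesophyll library above every epidermis library in CPM, against 4.65% of all genes tested. In ATNTT2 the gap was narrow, from 720 CPM in the epidermis to 765 CPM in the mesophyll. The library scaling of the test is not part of this comparison. The median log2 difference of the 15 was 0.23.

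**Figure D3:**
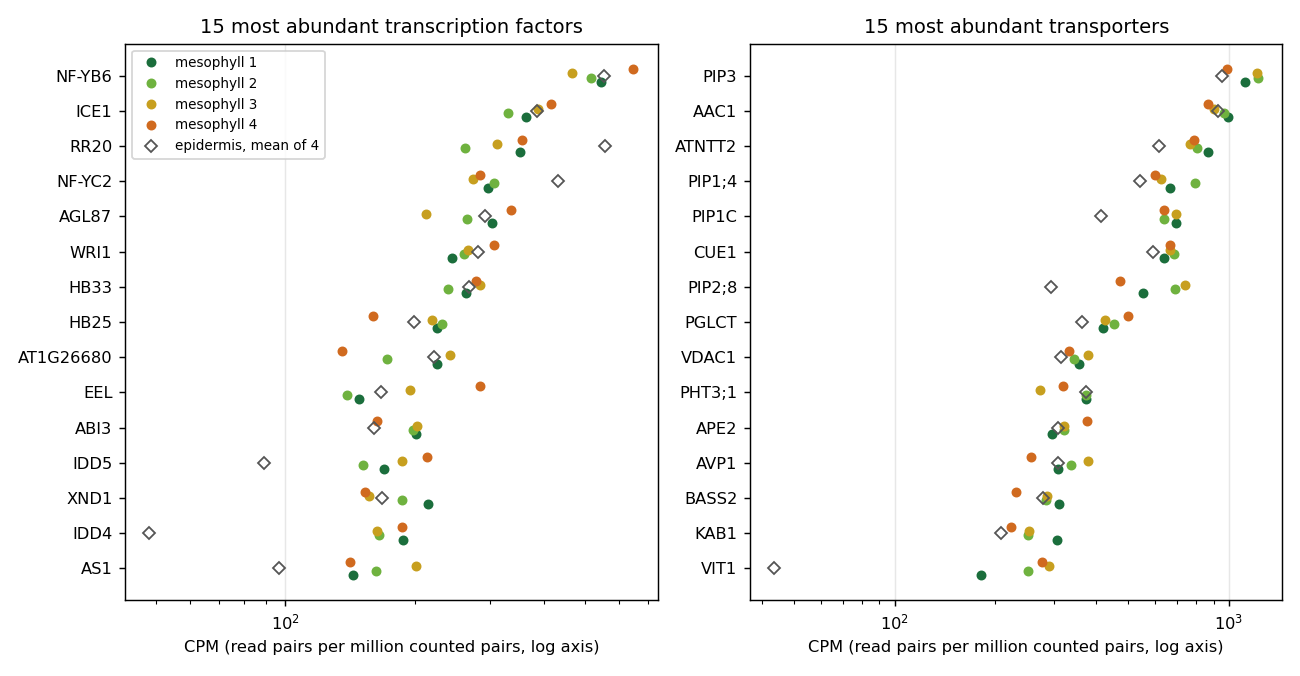
CPM on log axes for the 15 most abundant transcription factor genes (left) and transporter genes (right) of the mesophyll. Points are the 4 mesophyll libraries and open diamonds the mean of the 4 epidermis libraries. The diamond of IDD4 at 48.2 CPM and that of VIT1 at 43.6 CPM lie apart from their mesophyll points, while those of WRI1 and CUE1 lie near them.

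The light harvesting genes and the photosystem and electron transport genes were the steadiest of the groups examined. Their median SD of log2 CPM between mesophyll libraries was 0.0817 and 0.0902. Of 18 light harvesting genes 16 averaged 100 CPM or more. Over the 18 the highest library exceeded the lowest by 1.08- to 1.69-fold, with a median of 1.14-fold. LHCB4.2, an antenna protein gene of photosystem II, stood at 691, 676, 732 and 688 CPM. Lhca5, a minor antenna gene of photosystem I, had the widest range, at 43.2, 41.8, 59.1 and 70.5 CPM. Against the epidermis the edgeR quasi-likelihood test called 1 of the 18 higher and none lower, with a median log2 difference of 0.44. All 18 had a positive difference, 11 did not overlap the epidermis, and 12 were higher at an unadjusted p under 0.05. DESeq2 called 5 and the likelihood ratio test 1. Of all 15794 genes tested, 4.65% had every mesophyll library above every epidermis library, and 857 were higher at that unadjusted limit. Of the 30 photosystem and electron transport genes, all at 100 CPM or more, the edgeR quasi-likelihood test called 1 higher, FNR2, with a median of 0.38, and FNR2 was not called with any 1 replicate left out (adjusted p 0.110 to 0.211, edgeR). All 30 had a positive difference, 11 did not overlap the epidermis, 12 were higher at an unadjusted p under 0.05, and DESeq2 called 6 and the likelihood ratio test 1. PSAF and PSBW, subunits of photosystems I and II, averaged 1623 ± 99.3 and 1588 ± 60.4 CPM (SD, n = 4).

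Of the 17 Calvin cycle genes 16 averaged 100 CPM or more, and the edgeR quasi-likelihood test called 2 higher in the mesophyll, RBCS1B and RBCS3B, which share the longest stretch given above. RBCS3B was not called with any 1 replicate left out. Among those fits RBCS1B was called only in the 1 without replicate 4. All 17 had a positive difference, and 11 did not overlap the epidermis, against 4.65% of all genes tested that lay above it. At an unadjusted p under 0.05, 11 were higher, against 857 of all 15794 genes. DESeq2 called 7 and the likelihood ratio test 4. AT3G60750, a transketolase, stood at 1053, 1071, 1128 and 1245 CPM, GAPA at 885 to 1095 CPM and the aldolase gene FBA2 at 803 to 1098 CPM. RBCS1A made up most of the small subunit counts. LHCB4.2, Lhca5, FNR2 and RBCS2B are named outside the rule, after their values were seen. Its 9659 ± 667 CPM (SD, n = 4) compares with 227 ± 46.5 CPM for RBCS3B, 102 ± 20.4 CPM for RBCS1B and 47.3 ± 11.0 CPM for RBCS2B, and per kb with 9423 for RBCS1A and 228 for RBCS3B. Chlorophyll synthesis was led by PORB, the light-dependent protochlorophyllide reductase, at 1316, 1173, 1505 and 1192 CPM. CRD1 and the magnesium chelatase genes GUN5 and CHLI1 averaged 864, 460.1 and 419 CPM. None of the 14 tested genes of chlorophyll synthesis was called by edgeR, with 5 higher and 1 lower at an unadjusted p under 0.05. DESeq2 called 2 higher and 1 lower, and the likelihood ratio test 1 each.

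Genes of plastidial fatty acid synthesis were also steady, with a median SD of log2 CPM of 0.137 against 0.147 for the Calvin cycle. Of 29 genes 26 averaged 100 CPM or more, and the range between mesophyll libraries ran from 1.04-fold to 2.56-fold over the 29 genes. PDH-E1 ALPHA, of the plastidial pyruvate dehydrogenase that makes acetyl-CoA, stood at 1696, 1571, 1462 and 1709 CPM. ACP1, an acyl carrier protein, stood at 1294, 1390.2, 1348 and 1540.0 CPM, PKP-BETA1, a plastidial pyruvate kinase, at 1304 to 1472 CPM and KASI, a condensing enzyme, at 1161 to 1337 CPM. None of the 29 was called between the tissues by edgeR, DESeq2 or the likelihood ratio test. At an unadjusted p under 0.05, 2 were higher, against 857 of all 15794 genes tested, and 1 lower. The median log2 difference of the 29 was 0.16.

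Genes that modify and assemble the oil followed. FAD2, the oleate desaturase, stood at 1429.9, 1271, 1447 and 1919 CPM. KCS18, also called FAE1, which elongates seed fatty acids, stood at 317, 411, 318 and 604 CPM, and FAD3, the linoleate desaturase, at 250.1, 211, 329.9 and 311 CPM. ROD1, which exchanges the head groups of lipid intermediates, stood at 172 to 211 CPM. None of the 10 tested genes of this list was called by edgeR, with 2 higher at an unadjusted p under 0.05, 1 by DESeq2 and 2 by the likelihood ratio test, and their median log2 difference was 0.05. KCS18 was highest in replicate 4, like the oleosins.

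Of 16 embryo maturation regulators, 14 reached a mean of 1 CPM and 5 reached 100 CPM. FUS3, a B3 factor, stood at 61.2, 61.6, 63.0 and 87.9 CPM. LEC1 stood at 26.9, 40.8, 19.5 and 12.4 CPM, below every epidermis library at 81.3 to 148 CPM, and was the 1 gene of the list called lower by edgeR, against 2 lower by DESeq2 (log2 difference -2.40, SE 0.38, adjusted p = 0.0268, edgeR). The call was lost without replicate 1 or 3 (adjusted p 0.0885 and 0.157, edgeR). LEC1, FUS3, LEC2 and ABI5 were chosen for mention after their values were seen. LEC2, a B3 factor, stood at 1.81, 11.6, 14.7 and 0.792 CPM, and ABI5, a bZIP factor of abscisic acid response, at 14.1, 10.4, 6.19 and 11.8 CPM. The LEC1-like gene NF-YB6, at a mean of 543 CPM, was thus more abundant than LEC1, at 24.9 CPM. Per kb the levels were 579 and 26.6.

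The mesophyll also held RNA of dividing cells. All 21 cell cycle genes reached 1 CPM, and 4 reached 100 CPM. CYCD3;2, a D-type cyclin, stood at 411, 312, 455 and 366 CPM. SYP111, also called KNOLLE, the syntaxin of the cell plate, stood at 363, 429, 383 and 368 CPM, and the mitotic cyclin genes CYC1BAT and CYCB1;4 at means of 199.8 ± 32.9 and 117 ± 17.9 CPM (SD, n = 4). None was called by edgeR, and 2 were higher at an unadjusted p under 0.05, against 857 of all 15794 genes tested. DESeq2 called 1 higher and the likelihood ratio test none, and the median log2 difference was 0.15.

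Of 15 genes of adaxial and abaxial polarity, AS1 alone averaged 100 CPM. The class III homeodomain genes PHB, REV and ATHB-15, which mark the adaxial side and provascular tissue, stood at means of 77.7 ± 24.3, 77.4 ± 20.6 and 62.1 ± 22.3 CPM (SD, n = 4). PHB and REV were highest in replicate 3, at 112 and 107 CPM, the library with the highest vascular marker sum, whose part in these values was not tested. Of the list, the edgeR quasi-likelihood test called 2 genes lower in the mesophyll and none higher. Of all 15794 genes tested it called 155 lower and 16 higher. At an unadjusted p under 0.05, 5 genes of the list were lower and 1 higher. The count of all genes lower at that limit is not given here. DESeq2 called 4 lower and 2 higher, and the likelihood ratio test 4 lower.

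Sugar and amino acid carriers are set beside all 969 transporter models, of which 516 reached 1 CPM and 30 reached 100 CPM. The sugar carriers came near these shares and the amino acid carriers lay below them. Of 22 sugar transporters 12 reached 1 CPM and 1 reached 100 CPM, TMT2, a sugar carrier of the vacuole, at 125, 99.0, 96.1 and 139 CPM. SWEET1, a glucose carrier, followed at 40.4 to 55.2 CPM. Of 12 tested, the edgeR quasi-likelihood test called 4 lower and none higher, against 155 lower and 16 higher of all 15794 genes tested. At an unadjusted p under 0.05, 5 of the 12 were lower and 2 higher. The count of all genes lower at that limit is not given here. DESeq2 and the likelihood ratio test each called 5 lower and 1 higher. SUC5, which also counts as an endosperm marker, was among the 4. Of 15 amino acid transporters 3 reached 1 CPM, and AAP5 led them at 45.5, 42.7, 44.4 and 34.9 CPM. AAP1 stood at 6.32, 13.8, 7.27 and 20.2 CPM, below every epidermis library, and was called lower (log2 difference -2.35, SE 0.36, adjusted p = 0.0235, edgeR), a call that held only without replicate 4 among the fits with 1 replicate left out. Iron genes were more abundant. Besides VIT1, the ferritin genes FER1 and FER3, whose products store iron in plastids, averaged 177 ± 20.2 and 175 ± 14.7 CPM, and OPT3, an iron carrier, 109.8 ± 9.64 CPM.

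The spread between the 4 mesophyll libraries was measured as the SD of log2 CPM, after scaling by TMM (the trimmed mean of M-values) and with 1 CPM added, over the 7765 genes of 20 CPM or more on average. The median SD was 0.310, the 90th percentile 0.617, and 80.3% of genes had an SD under 0.5. The median gene had a 1.64-fold range between its highest and lowest library. Ribosomal protein genes had a median SD of 0.152, histone genes of 0.223, transcription factors of 0.351 and transporters of 0.372. The 18 light harvesting genes had a median SD of 0.0817, the 8 storage protein genes of 1.51 and the 7 oil body genes of 0.592.

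**Figure D4:**
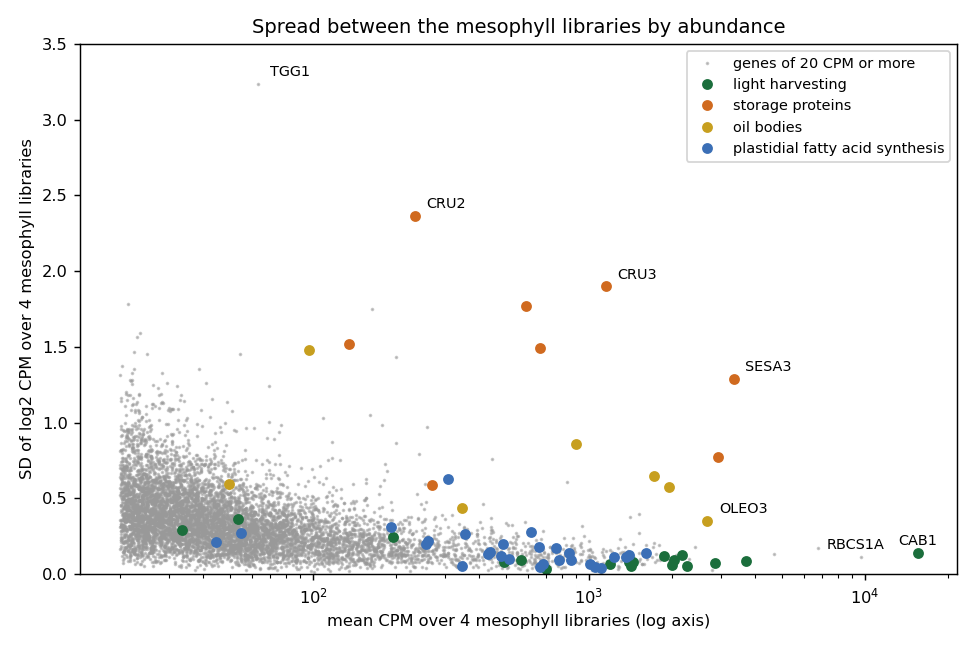
SD of log2 CPM over the 4 mesophyll libraries (vertical axis) against mean CPM (horizontal log axis) for genes of 20 CPM or more, each a grey point, with 4 gene lists in colour. At high abundance the light harvesting genes lie near 0.0817, whereas storage protein genes lie between 0.591 and 2.37.

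The most variable gene of the mesophyll was TGG1, a myrosinase, an enzyme of glucosinolate breakdown known from guard cells and myrosin cells. It stood at 18.0, 157, 0 and 78.2 CPM, so that 1 library held no pair of it, and its SD was 3.24. In the epidermis it stood at 0.382, 0, 0 and 0.0316 CPM, and it did not pass the filter for the test between tissues. Among the libraries of the mesophyll, replicate 2 was highest and replicate 3 was under the floor of 0.104 CPM.

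Storage protein genes followed. CRU2, a cruciferin, stood at 42.6, 548, 16.8 and 327 CPM, a 32.5-fold range. CRU3, another cruciferin, stood at 281, 2195, 174 and 1947 CPM, a 12.6-fold range. The albumin gene SESA2 stood at 229, 1187, 86.1 and 865 CPM, and SESA5 at 35.8, 241, 39.1 and 222 CPM. In each of these genes replicates 2 and 4 were high and replicates 1 and 3 low. SESA4 shared this pattern, at 293, 1038, 142 and 1177 CPM. ATS3, an embryo-specific gene, stood at 74.4, 259, 22.5 and 299.6 CPM, and ATS1, a caleosin of the oil body, at 35.9, 170.3, 22.9 and 159 CPM. PAP85, a cupin family gene outside the naming rule and chosen after its values were seen, stood at 86.4, 273, 47.6 and 395 CPM.

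The other 4 of the 12 most variable genes were less abundant. DIC2, a mitochondrial dicarboxylate carrier, stood at 51.0, 24.0, 8.72 and 1.96 CPM. AT5G62030, of diphthamide synthesis, was low in replicate 1 alone, at 2.45, 35.2, 31.0 and 25.8 CPM. AT4G19510, of a disease resistance family, stood at 7.99, 26.7, 4.15 and 53.5 CPM and AT4G20325, a ribonuclease H2 subunit, at 40.9, 26.9, 19.1 and 3.04 CPM. These 4 genes averaged 21.4 to 23.6 CPM, close to the limit of 20 CPM. In 9 of the 12, replicates 2 and 4 both lay above replicates 1 and 3.

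That order of libraries was shared by the whole of both storage lists. All 8 storage protein genes and all 7 oil body genes of 20 CPM or more had replicates 2 and 4 above replicates 1 and 3, against 15.3% (1185 of 7765) of all genes. This order was noticed in the values and is given as a description. The storage protein genes had ranges of 2.22- to 32.5-fold with a median of 7.52-fold. Their sum was 0.427, 1.42, 0.337 and 1.55% of pairs. The oil body genes had ranges of 1.64- to 7.45-fold with a median of 2.27-fold, and their sum was 0.584, 0.839, 0.538 and 1.14% of pairs. OLEO1 stood at 1201, 1943, 1065 and 2696 CPM and OLEO2 at 652, 1136, 392 and 1405 CPM. Promoters of these genes, as given above, held the RY core in 7 of 8 and 7 of 7 cases.

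The order did not carry over to the epidermis by replicate number. No storage protein or oil body gene had epidermis replicates 2 and 4 above 1 and 3, and epidermis replicate 1 was highest for 7 of 8 and for 7 of 7 genes. This was not particular to the storage genes. Epidermis replicate 1 was also highest for 17 of 18 light harvesting genes, and for 10 genes of plastidial fatty acid synthesis. The share over all genes is not given here. Storage proteins took 0.684, 0.148, 0.238 and 0.157% of epidermis pairs. Among the maturation regulators in the mesophyll, ABI3 stayed within 1.24-fold, WRI1 within 1.25-fold and NF-YB6 within 1.39-fold, while ABI5 ranged over 2.28-fold, LEC1 over 3.29-fold and LEC2, at low levels, over 18.5-fold. None of these 6 had the order of libraries of the storage genes, and LEC1, LEC2 and ABI5 among them were chosen after their values were seen. The other regulators of the list are not set against this order here. The epidermis marker sum, at 739, 718, 261 and 658 CPM, and the vascular marker sum, at 160, 220, 332 and 201 CPM, had other orders of libraries. The seed coat marker sum, at 197, 126, 211 and 96.1 CPM and nearly all ARA12, was the mirror of the storage order, with replicates 2 and 4 below 1 and 3. In the epidermis that sum was 75.7, 80.7, 177 and 196 CPM, lowest in replicate 1, where storage genes were highest. Its part in the storage pattern was not tested. The labels give 1 stage for all libraries.

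**Figure D5:**
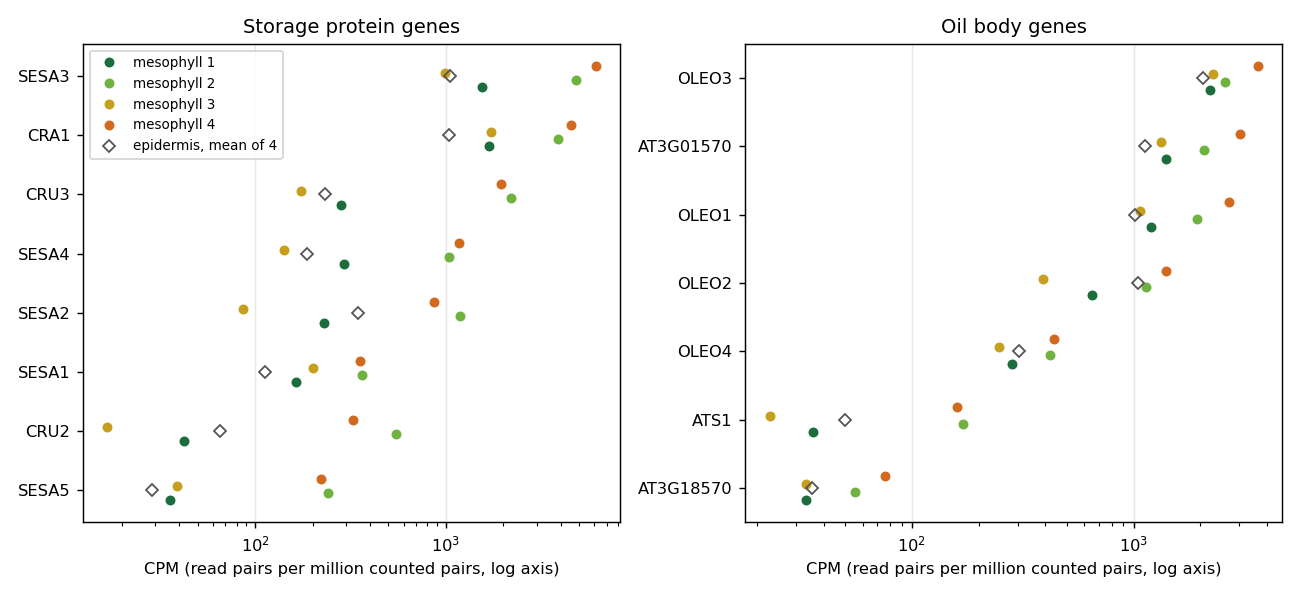
CPM on log axes for the 8 storage protein genes (left) and 7 oil body genes (right) of 20 CPM or more. Points are the 4 mesophyll libraries and open diamonds the mean of the 4 epidermis libraries. In every row the points of mesophyll replicates 2 and 4 lie to the right of those of replicates 1 and 3, from 1.64-fold in OLEO3 to 32.5-fold in CRU2 between the highest and the lowest point.

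None of the 8 storage protein genes was called between the tissues by edgeR, and their median log2 difference was 1.72. At an unadjusted p under 0.05, 2 were higher and none lower, and DESeq2 and the likelihood ratio test called 1 each. SESA3 had a log2 difference of 1.64 with an SE of 0.75 and CRU3 one of 2.30 with an SE of 1.71. None of the 7 oil body genes was called by edgeR, at an unadjusted p under 0.05, or by the other 2 tools, and their median was 0.42.

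Beyond the storage genes, the 100 most variable genes were mostly of low abundance, 84 of them under 50 CPM. They held 6 storage protein genes, 1 oil body gene, 4 transcription factors and 6 transporters, and no gene of ribosomal proteins, histones, light harvesting or fatty acid synthesis. The touch response gene TCH4, a xyloglucan-modifying enzyme, stood at 97.5, 42.9, 9.41 and 68.3 CPM, and JAZ1, a jasmonate repressor, at 29.8, 14.8, 7.58 and 41.8 CPM. Both were lowest in replicate 3. That library was the lowest for 42 of the 100 genes, replicate 4 for 30, replicate 1 for 24 and replicate 2 for 4, whereas over all 7765 genes the shares were between 21.9 and 27.3%. The list of rapid stress and touch genes summed to 298, 163, 82.1 and 215 CPM, and heat shock genes, at 103, 116, 98.4 and 120 CPM, were steady. Of the 100 genes 3 were called between the tissues, all lower in the mesophyll. They were TT4, AT1G17200 and AT5G08460, named after their values were seen. Among mesophyll libraries they were lowest in replicate 3, at 16.3, 12.9 and 11.7 CPM. That library had the lowest epidermis marker sum, whose part in these values was not tested.

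The 16 genes called higher in the mesophyll had a median log2 difference of 1.58, and the 10 most abundant of them were CAB3, AT1G55360, AT5G07030, AT2G45340, GOX1, DYL1, VIT1, SIP2, RBCS3B and IDD4. AT1G55360, of an uncharacterised domain family, stood at 475, 432, 425 and 591 CPM, against 159.9 to 265 CPM in the epidermis (log2 difference 1.19, SE 0.21, adjusted p = 0.0386, edgeR). AT5G07030, an aspartyl protease, stood at 298, 325, 229.7 and 420.4 CPM against 95.9 to 134 CPM (log2 difference 1.39, SE 0.21, adjusted p = 0.0227, edgeR). AT2G45340, a leucine-rich repeat receptor kinase, stood at 282, 255, 336 and 352 CPM against 90.7 to 132 CPM (log2 difference 1.40, SE 0.18, adjusted p = 0.0108, edgeR). In none of the 3 did the tissues overlap. The first 2 were not called with any 1 replicate left out, and AT2G45340 was not called without replicate 3 (adjusted p = 0.0908, edgeR).

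GOX1, the glycolate oxidase of photorespiration, stood at 322, 269, 313 and 297 CPM against 92.3 to 183 CPM (log2 difference 1.30, SE 0.20, adjusted p = 0.0246, edgeR). SIP2, annotated as a raffinose synthase family gene, stood at 255, 181, 293 and 219 CPM against 83.3 to 124 CPM (log2 difference 1.07, SE 0.18, adjusted p = 0.0325, edgeR). RBCS3B stood at 241, 188, 287 and 194 CPM against 36.6 to 121 CPM (log2 difference 1.52, SE 0.25, adjusted p = 0.0305, edgeR). GOX1 and the Rubisco small subunits belong to the carbon metabolism of chloroplasts and peroxisomes. The calls rest on few libraries: with replicate 3 left out of both tissues, none of the genes was called higher by edgeR (606 at an unadjusted p under 0.05, smallest adjusted p 0.0521), and with replicate 1 left out 6 were. These p-values measure only the spread between these samples.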

How the data were processed

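Read pairs were counted per gene in 4 mesophyll and 4 epidermis libraries. The authors trimmed the reads, removed ribosomal reads with sortMeRNA, aligned to the representative TAIR10 gene models with Bowtie2 in local mode and counted with a script of their own, leaving out pairs that matched several genes (1.33 to 1.40% in the mesophyll). The submitters' processing notes also name TopHat2. The deposited values are raw pair counts, without normalization. Of 33602 identifiers, 97.7% matched the annotation of TAIR10.1. Counts were turned into CPM over all counted pairs, and into CPM per kb with the deposited model length. Overlap between the tissues was judged on this CPM without TMM scaling, whose factors ran from 0.929 to 1.08. A narrow separation can therefore change under that scaling. Models holding at least 20 A or 20 T in a row were left out of rankings. No unmapped column was used.

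Genes of at least 1 CPM in 4 of the 8 libraries were tested with edgeR 4.0.16 (R 4.3.3) by the quasi-likelihood test on counts, with TMM scaling and terms for tissue and replicate number, as the methods of the study fit tissue and harvest date, and with Benjamini-Hochberg adjustment and a call at an adjusted p of 0.05. The test was run on simulated counts with 200 changed genes. DESeq2 1.42.0 and the likelihood ratio test were alternatives. Values per library were compared by exact permutation (scipy 1.17.1).

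Named were the 20 most abundant nuclear genes, the 15 most abundant transcription factors and transporters by annotated family, the 12 most variable genes, the 10 most abundant genes called higher, the 4 markers and up to 4 members of each of 23 gene lists. The members and lists were chosen with earlier results of these data known, and the annotation rules for families were refined after the annotation had been seen. Nothing ties replicate numbers to plants in the labels, so p-values measure only the spread between these samples.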

Additional observations from a re-analysis of the deposited data

Results flagged for a closer look

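For each of 121 named genes and 11 values per library, the most distant of the 4 mesophyll libraries was compared with the rest by the 95% limit of Dixon's ratio. Chance passes this limit in about 1 of 20 groups, and 7 genes passed it. LHCB5, an antenna protein gene, was low in replicate 2 at 1923 CPM against 2234 to 2279 CPM in the others. PSAF, of photosystem I, was low in the same library at 1476 CPM against 1650.5 to 1685 CPM, and so was CRD1, of chlorophyll synthesis, at 729 CPM against 904 to 913 CPM. CHLI1, a magnesium chelatase subunit gene, was high in replicate 1 at 500.4 CPM against 385 to 404 CPM. ABI3 was low in replicate 4 at 164 CPM against 198 to 203 CPM. LTPG1, an epidermis marker that transports lipids to the cuticle, was low in replicate 3 at 57.4 CPM against 205 to 226 CPM, and TMO6, a vascular marker, was high in the same library at 139 CPM against 69.9 to 78.0 CPM.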

How the results depend on the processing

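The count of genes called between the tissues depended on the fit. The main fit called 171 genes, 16 of them higher in the mesophyll. Without the replicate block it called 361 (85 higher), with the likelihood ratio test 821 (264), with DESeq2 1320 (534), with a filter of 10 CPM 257 (46) and with no filter 244 (31). Leaving out 1 replicate of both tissues gave 54 to 147 calls, 0 to 13 of them higher, fewest without replicate 3. Same-numbered libraries of the tissues deviated together little, with correlations of -0.0102 to 0.0702, and 1 of 4 mesophyll libraries correlated best with its own number, so the replicate block is a term of the fit and not a shown pairing. Of 19 named genes that were called, LEC1 and FNR2 included, none reversed, and 13, 10, 15 and 7 were no longer called without replicates 1, 2, 3 and 4.

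The excess of the 100 most abundant genes of a library, as a share of all counted pairs, was 1.92 to 2.80 points with 1 replicate left out. There 3 against 3 libraries allow no exact p under 0.1. The excess turned to -2.03 points with all models kept. The difference in detected genes, -4.5, was 1.5 with models of a run of 15 or more left out and -220 to 224 with 1 replicate left out. Of the 20 most abundant genes, 13 stayed per kb, 12 with all models kept, and 19 or 20 without any 1 mesophyll library. Of the 12 most variable genes, 2 stayed with a minimum of 5 CPM, 7 by the coefficient of variation, 7 with at least 5 CPM in every mesophyll library (chosen after seeing the data), and 7 to 9 without any 1 library. With the run models removed from the total, storage proteins stood at 4665, 15302, 3653 and 16962 CPM. Genes near 20 CPM and near-identical copies limit what these depths can order.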

Other observations

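The very uneven TGG1 was looked at beside 3 related genes, chosen after its values were seen. TGG2, the second myrosinase gene of guard cells and myrosin cells, stood at 0, 0.0593, 0 and 0.0317 CPM in the mesophyll libraries, at or under the floor of 3 pairs, with 3 pairs in all against 8269 for TGG1. FAMA, the bHLH factor of guard cells and myrosin cells, stood at 3.27, 0.0593, 0 and 0.0634 CPM, and thus was highest in replicate 1, where TGG1 stood at 18.0 CPM, and not in replicate 2, where TGG1 stood at 157 CPM. NSP1, a nitrile specifier protein gene of the same breakdown pathway, stood at 0.178, 1.90, 1.18 and 2.12 CPM in the mesophyll and at 57.3, 96.2, 38.1 and 6.79 CPM in the epidermis.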
